A study of Brassica napus with 2 samples.

Results

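The *IAA1* and *IAA2* orthologs of *Brassica napus* are the *Aux/IAA* genes whose counterpart in *Arabidopsis thaliana* is listed as AT4G14560 (*IAA1*) or AT3G23030 (*IAA2*). They were taken from the ortholog table of the study by a rule that uses no expression values, though earlier results of these data were known by then. They number 8 of the 119 *Aux/IAA* genes of the family and of the 63193 genes with values. There are 6 orthologs of *IAA2* and 2 orthologs of *IAA1*, and all 8 had values. Their expression was measured by RNA-seq in 2 libraries of whole 30-day-old seedlings grown on MS agar, each from a pool of 10 seedlings. The control library came from seedlings held for 3 h without IAA, in liquid MS medium by the protocol and in water by the sample label. The IAA library came from seedlings held for 3 h with 1 μM IAA, the auxin indole-3-acetic acid. The sources used here do not name the cultivar, and both columns carry "WT" in their names. Each condition has only its 1 library, which leaves no replicate, and no test between the conditions was run here. A difference between the pools that has nothing to do with IAA cannot be told apart from a response to it.

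Aux/IAA proteins are short-lived nuclear repressors that bind auxin response factors (ARFs) and hold back the genes these factors activate. Auxin brings Aux/IAA proteins to the F-box receptors TIR1/AFB, which leads to their degradation, and many *Aux/IAA* genes are themselves targets of the released ARFs, which closes a feedback loop. In *Arabidopsis*, *IAA1* and *IAA2* belong to the early auxin-inducible genes. A mutation that stabilises IAA1 (*axr5*) disturbs root and shoot tropisms, and the *IAA2* promoter is widely used as a reporter of auxin response.

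All 8 genes were small and alike in structure. In the gene table for the Darmor-*bzh* genome v4.2 each has 2 exons and encodes 171 or 172 amino acids, within a gene of 923 to 1203 bp, whereas 10 of the other 111 *Aux/IAA* genes have 2 exons. The *IAA2* orthologs form 3 homeologous pairs, each with a copy in the An and the Cn subgenome. The first pair is *BnaA01.IAA.4* (A01:16609896-16611098) with *BnaC01.IAA.4* (C01:29957055-29958257). The second is *BnaA03.IAA.5* (A03:18182124-18183181) with *BnaC03.IAA.4* (C03:27943701-27944683), and the last is *BnaA05.IAA.3* (A05:11384467-11385470) with *BnaC05.IAA.7* (C05:28121660-28122582). The *IAA1* orthologs are *BnaC08.IAA.1* (C08:14475190-14476148) and *BnaA08R.IAA.1*, on an unplaced sequence of chromosome A08 at 1319350 to 1320300. The ortholog table lists these last genes separately and not as a homeologous pair. All 8 belong to subgroup A1 of the family.

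With IAA, each of the 8 genes stood 2-fold or more above its control level, by 2.38-fold to 3.23-fold, and 0 stood 2-fold or more below it. Values are FPKM, the sequenced fragments of a gene scaled for the length of its transcript and the size of the library, so that levels can be compared between genes. Among all genes, 4.22% were higher with IAA by this threshold and 8.68% lower. Of the 15641 genes that reached 10 FPKM in either library, 2.03% were higher and 1.63% lower. The median log2 fold change, taken after 0.1 FPKM was added to both values, was 1.43 for the 8 genes and -0.13 for all genes. No test stands behind this contrast.

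The *IAA2* orthologs were the strongly expressed members. *BnaC05.IAA.7* was at 139 FPKM in the control and 333 FPKM with IAA, the highest of the family in both libraries. *BnaC03.IAA.4* was at 104 FPKM and 307 FPKM, and moved from rank 3 of the 93 *Aux/IAA* genes with values to rank 2. *BnaA05.IAA.3* was at 73.1 FPKM and 192 FPKM, and moved from rank 6 to rank 3. With IAA the first 3 places of the family were thus held by *IAA2* orthologs. *BnaA03.IAA.5* was at 58.8 FPKM and 186 FPKM, and moved from rank 10 to rank 4. *BnaA01.IAA.4* was at 50.6 FPKM and 121 FPKM, rank 12 and rank 8. *BnaC01.IAA.4*, the lowest *IAA2* ortholog, was at 28.5 FPKM and 79.4 FPKM, rank 21 and rank 14. Every *IAA2* ortholog was therefore higher with IAA than it was in the control, and all 6 moved up the family or stayed at its head.

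The *IAA1* orthologs were far lower. *BnaC08.IAA.1* was at 7.95 FPKM in the control and 25.6 FPKM with IAA, and *BnaA08R.IAA.1* at 0.884 FPKM and 2.29 FPKM. Summed over the genes of each class, the *IAA2* orthologs reached 455 FPKM in the control and 1218 FPKM with IAA, against 8.83 FPKM and 27.9 FPKM for the *IAA1* orthologs. The highest member exceeded the lowest 157-fold in the control and 145-fold with IAA, while the fold differences between the libraries lay close together.

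**Figure D1:**
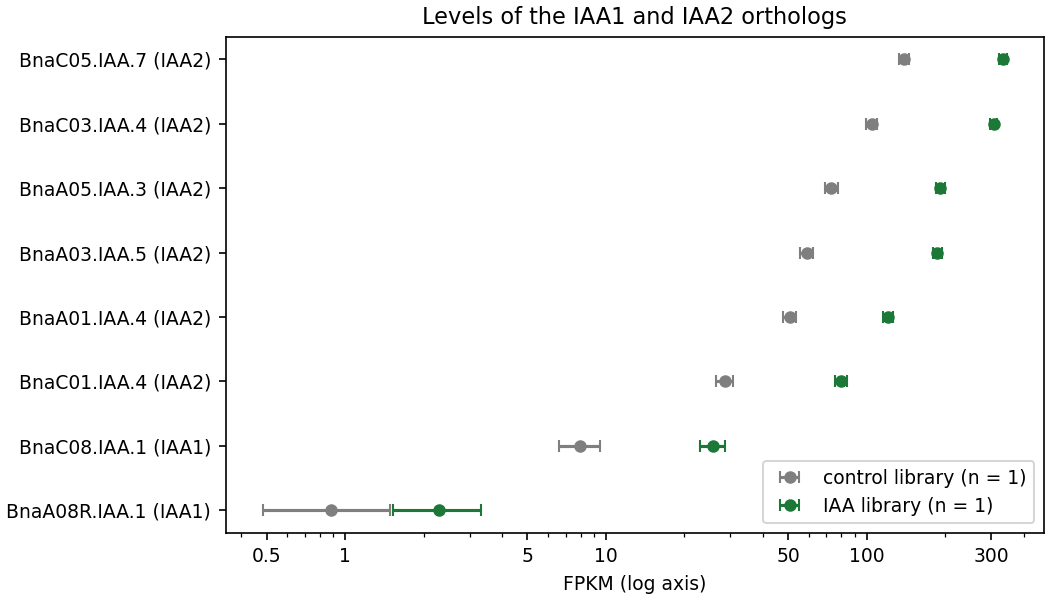
FPKM (log axis) of the 8 *IAA1* and *IAA2* orthologs in the control library (grey) and the IAA library (green), 1 library each, with 95% exact Poisson intervals of the estimated fragments, which cover counting error only. Every gene is higher with IAA, from *BnaA08R.IAA.1* (0.884 FPKM and 2.29 FPKM) to *BnaC05.IAA.7* (139 FPKM and 333 FPKM).

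In terms of all 63193 genes, the 6 *IAA2* orthologs stood among the top 8.36% of the control library and the top 2.43% of the IAA library. *BnaC05.IAA.7* ranked 645th in the control and 183rd with IAA, and *BnaC03.IAA.4* ranked 1028th and 217th. *BnaC08.IAA.1* ranked 17598th and 5955th. Among the 2668 genes past the 2-fold threshold with IAA, *BnaC05.IAA.7* had the 9th highest level in the IAA library and *BnaC03.IAA.4* the 11th, and all 6 *IAA2* orthologs were within the first 55. These ranks set levels side by side and test nothing.

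The order of the levels was the same in both libraries. It could be judged against counting error, because FPKM of genes with few fragments are whole multiples of what 1 fragment is worth. Transcript lengths from the gene table turned the low values of the family into whole fragments at a control depth of 23700000 fragments and an IAA depth of 18300000 fragments, with a mean fragment length of 195 bp in both. All 23 family genes that had no more than 20 fragments in the control, and all 16 in the IAA library, came within 0.1 of a whole fragment; 10 and 7 genes had served to choose the depth. The estimated fragments of the *IAA2* orthologs ran from 624 to 2118 in the control and from 1342 to 3918 with IAA. *BnaC08.IAA.1* had 127 and 316 fragments, and *BnaA08R.IAA.1* had 14 and 28. In the control library, all 7 steps of the order from *BnaC05.IAA.7* down to *BnaA08R.IAA.1* exceeded counting error. The smallest of these steps was between *BnaA03.IAA.5* and *BnaA01.IAA.4*, with a ratio of 1.16 (95% exact binomial interval from 1.07 to 1.27). With IAA the step between *BnaA05.IAA.3* and *BnaA03.IAA.5* no longer exceeded it, at a ratio of 1.03 (interval from 0.974 to 1.09). These intervals and those below cover counting error only, and nothing of the variation between seedlings. The order also rests on the listed transcript lengths, which run from 837 to 1118 bp. In fragments alone, *BnaA01.IAA.4* (1106) stood above *BnaA03.IAA.5* (1080) in the control. With IAA, *BnaC03.IAA.4* (3918) stood above *BnaC05.IAA.7* (3912) and *BnaA03.IAA.5* (2641) above *BnaA05.IAA.3* (2524).

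The fold differences were estimated closely for the *IAA2* orthologs and loosely for the *IAA1* orthologs. *BnaA03.IAA.5* was 3.17-fold higher with IAA (95% exact binomial interval from 2.95 to 3.40), and *BnaC03.IAA.4*, its homeolog, 2.94-fold higher (interval from 2.78 to 3.11). *BnaC01.IAA.4* was 2.79-fold higher (interval from 2.53 to 3.07) and *BnaA01.IAA.4* 2.38-fold higher (interval from 2.21 to 2.57). *BnaA05.IAA.3* was 2.62-fold higher (interval from 2.45 to 2.81) and *BnaC05.IAA.7* 2.39-fold higher (interval from 2.27 to 2.52). All 6 intervals lay above a 2-fold difference. For *BnaC08.IAA.1* the difference was 3.23-fold, the highest of the 8, with an interval from 2.61 to 3.99. For *BnaA08R.IAA.1* it was 2.59-fold with an interval from 1.32 to 5.32. At the depth of these libraries *BnaA08R.IAA.1* was therefore higher with IAA beyond counting error, but its interval reached below a 2-fold difference. With 1 FPKM in place of 0.1 FPKM added to both values, its log2 fold change was 0.80, below the 2-fold threshold, and 7 of the 8 genes passed.

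**Figure D2:**
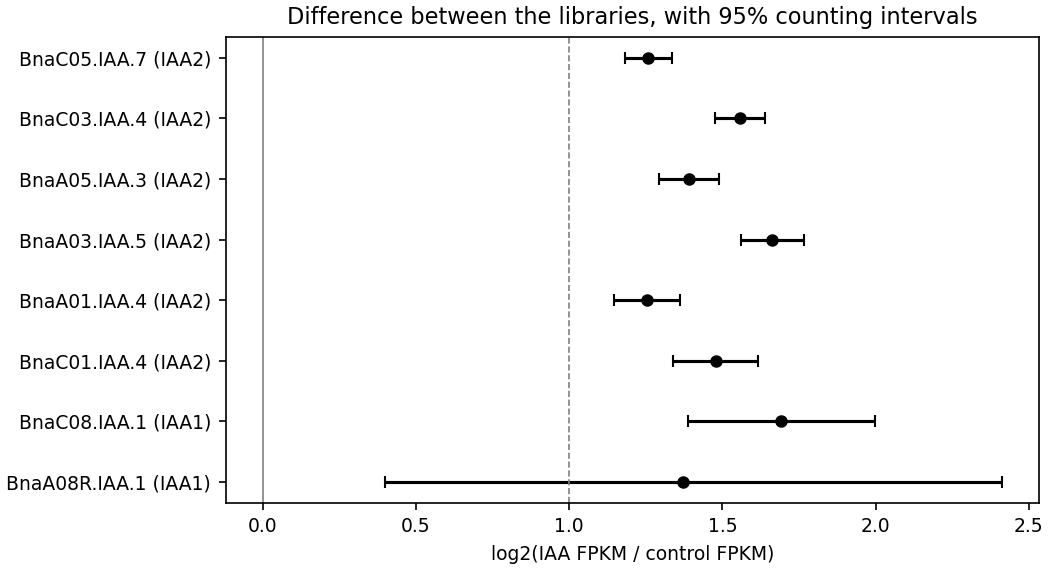
Log2 of the IAA FPKM over the control FPKM for each gene, without an added value, with 95% exact binomial intervals of the estimated fragments (counting error only); the solid line marks no difference and the dashed line a 2-fold difference. The intervals of 7 genes lie to the right of the 2-fold line and that of *BnaA08R.IAA.1* spans it.

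Some of the 8 genes still differed from one another in fold by more than counting error, while variation between pools was not measured. Of the 28 pairs of members, 12 had a 95% exact interval of the difference in log2 fold change that excluded 0, without adjustment for the number of pairs. The widest gap among the *IAA2* orthologs was between *BnaA03.IAA.5* and *BnaA01.IAA.4*, at 0.41 on the log2 scale (interval from 0.26 to 0.56). *BnaC05.IAA.7* and *BnaA01.IAA.4* had close to the same fold, with a difference of 0.0048 and an interval from -0.13 to 0.14. Taken as a whole, the *IAA1* orthologs were 3.16-fold and the *IAA2* orthologs 2.68-fold higher with IAA. The log2 fold change of the summed fragments was 0.24 higher in the *IAA1* orthologs, with an interval from -0.05 to 0.53 that includes 0.

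Within the homeologous pairs, the balance between the subgenomes was much the same with and without IAA. The Cn copy was the higher one on chromosomes A03/C03 and A05/C05, and the An copy on A01/C01. *BnaC03.IAA.4* contributed 64.0% of the FPKM of its pair in the control (95% exact binomial interval from 62.2% to 65.7%) and 62.3% with IAA (interval from 61.1% to 63.4%). The log2 fold change of *BnaC03.IAA.4* was 0.11 lower than that of *BnaA03.IAA.5*, with an interval of the difference from -0.24 to 0.03. *BnaC05.IAA.7* contributed 65.6% in the control and 63.5% with IAA, and its log2 fold change was 0.13 lower than that of *BnaA05.IAA.3* (difference -0.13, interval from -0.26 to -0.01). *BnaC01.IAA.4* contributed 36.0% in the control and 39.7% with IAA, and its log2 fold change was 0.22 higher than that of *BnaA01.IAA.4* (interval from 0.05 to 0.40). In each of the 3 pairs the copy with the lower level thus had the higher fold, and in 2 of them by more than counting error. Homeologs are close in sequence, and Cufflinks can split fragments that match both copies between them, which bears on these shares as well.

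The pairs differed more in level than in fold. The copies on A05 and C05 together were at 212 FPKM in the control and 525 FPKM with IAA, a 2.47-fold difference. Those on A03 and C03 were at 163 FPKM and 493 FPKM, a 3.02-fold difference. Those on A01 and C01 were at 79.1 FPKM and 200.0 FPKM, a 2.53-fold difference. Summed by subgenome, the An copies of *IAA2* were 2.73-fold and the Cn copies 2.64-fold higher with IAA. Of the *IAA1* orthologs, *BnaC08.IAA.1* held 90.0% of the sum in the control (interval from 83.9% to 94.5%) and 91.8% with IAA (interval from 88.4% to 94.5%).

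The *IAA2* orthologs carried much of the family's total. In the control, the 8 genes made up 26.8% of the summed FPKM of the 93 *Aux/IAA* genes with values, 463 FPKM of 1731 FPKM. With IAA they made up 37.0%, 1246 FPKM of 3369 FPKM. Of the gain of the family between the libraries, 1638 FPKM, the 8 genes held 782 FPKM or 47.8%, and *BnaC03.IAA.4* and *BnaC05.IAA.7* gained 203 FPKM and 194 FPKM. Over the same libraries the sum of the other 85 genes was 1.67-fold higher with IAA, against 2.69-fold for the 8 genes.

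**Figure D3:**
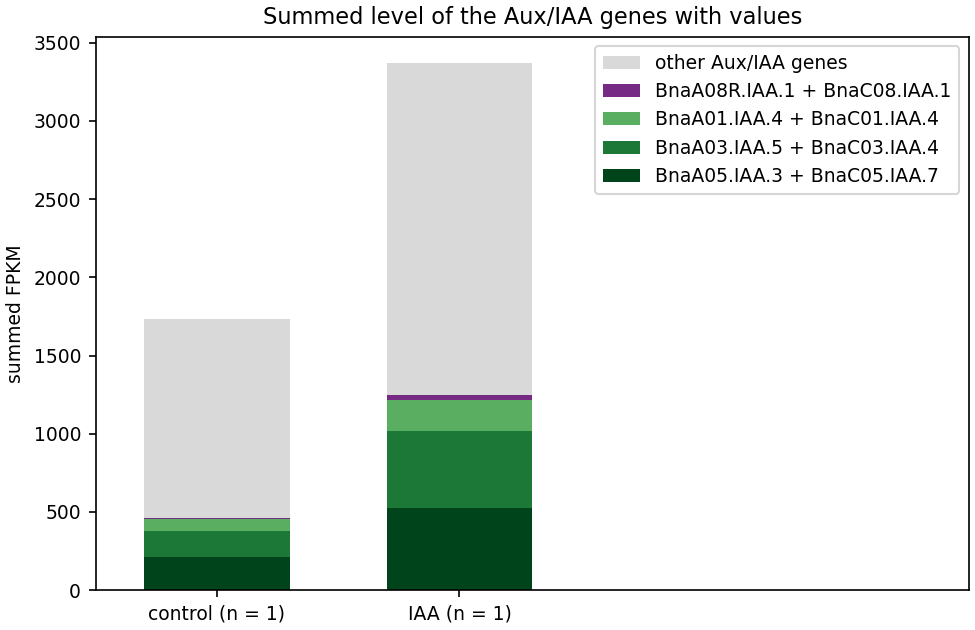
Summed FPKM of the 93 *Aux/IAA* genes with values in the control and the IAA library (1 library each), stacked by pair; the green blocks are *IAA2* orthologs, the purple block the *IAA1* orthologs and the grey block the other 85 genes. The coloured part is 26.8% of the bar in the control and 37.0% with IAA.

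Among the other *Aux/IAA* genes the fold difference between the libraries varied widely. Of those 85 genes, 31 were higher with IAA by the 2-fold threshold (36.5%) and 1 was lower (1.18%), and their median log2 fold change was 0.52. The log2 fold changes of the 8 genes ran from 1.25 to 1.68, within the span of -1.22 to 5.12 of the other genes. Below the range of the 8 genes lay 57 of the other genes, within it 8 and above it 20. The nearest relatives are the other members of subgroup A1, of which 10 of 23 were higher by that threshold (43.5%) and 0 lower, with a median of 0.89. By ortholog set, 3 of 3 genes of the AT1G04240 (*IAA3*) set passed the threshold upward and 0 of 2 of the AT5G43700 (*IAA4*) set. The AT1G04250 (*IAA17*) set had 4 of 6 such genes, the AT4G14550 (*IAA14*) set 1 of 2, the AT3G23050 (*IAA7*) set 0 of 4 and the AT3G04730 (*IAA16*) set 0 of 4. Sets in which each gene passed it were therefore found outside *IAA1* and *IAA2* as well, and whether these sets differ from the 8 genes was not tested.

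**Figure D4:**
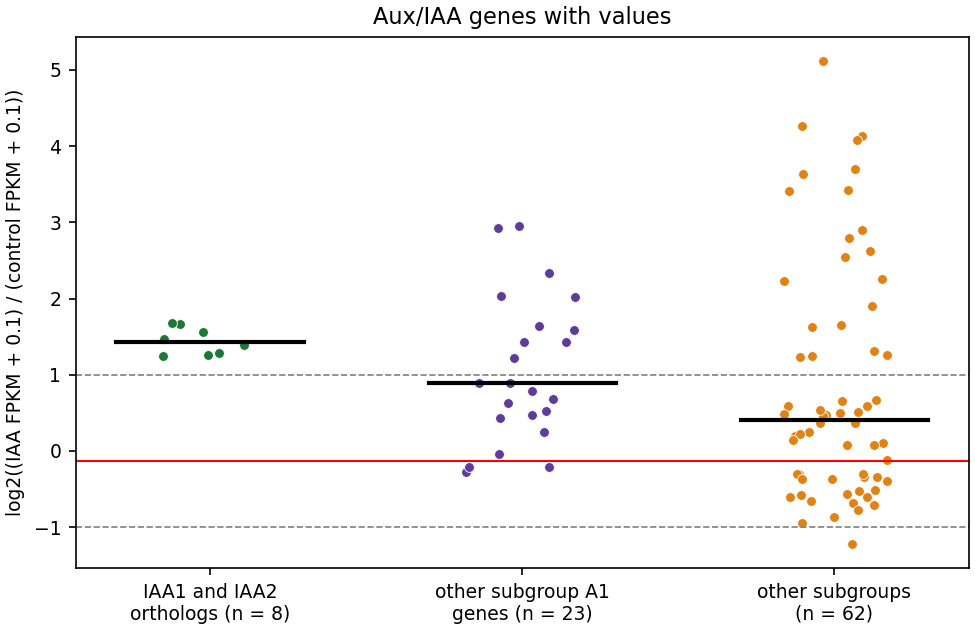
Log2 fold change (0.1 FPKM added to both values) of the 8 *IAA1* and *IAA2* orthologs, the other 23 subgroup A1 genes and the 62 genes of other subgroups with values. Black bars are group medians, the red line is the median of all genes at -0.13, and dashed lines mark 2-fold differences; all 8 orthologs lie above the upper one.

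The *Aux/IAA* genes most like the *IAA2* orthologs over the 2 libraries, by Euclidean distance to their median in log2(FPKM + 0.1), were *BnaA03.IAA.6* (distance 0.70), *BnaA06.IAA.4* (0.76) and *BnaC05.IAA.10* (0.89). Their levels in the control were close to those of the *IAA2* orthologs, at 62.8 FPKM, 92.4 FPKM and 119 FPKM. With IAA they were at 117 FPKM, 127 FPKM and 161 FPKM, which is 1.86-fold, 1.37-fold and 1.35-fold higher and less than a 2-fold difference in each. Not every subgroup A1 gene at such control levels stayed below 2-fold. *BnaA08.IAA.4* passed it, at 38.1 FPKM and 88.7 FPKM (log2 fold change 1.22). *BnaAX.IAA.2*, at 60.0 FPKM and 71.3 FPKM (0.25), and *BnaA01.IAA.8*, at 101 FPKM and 87.2 FPKM (-0.21), did not. Nearest to the median of the 2 *IAA1* orthologs was *BnaC05.IAA.2*, an *IAA3* ortholog, at 2.49 FPKM and 10.5 FPKM (distance 0.45). *BnaA09.IAA.1* (0.57) followed at 3.57 FPKM and 5.76 FPKM, and *BnaCX.IAA.3* (0.67) at 3.69 FPKM and 5.37 FPKM. The 2 *IAA1* orthologs lie far apart in level, so their median is close to neither. Closer to *BnaC08.IAA.1* itself was *BnaA10.IAA.3*, at 8.99 FPKM and 28.15 FPKM (log2 fold change 1.64). Closer to *BnaA08R.IAA.1* was *BnaA08.IAA.2*, at 0.797 FPKM and 2.32 FPKM (1.43). Both belong to subgroup A1. Over 2 libraries the distance mostly compares levels.

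Few of the genes around the 8 orthologs showed a like difference. Of the 10 gene identifiers on either side of each ortholog, 81 genes had values. With IAA 4 of them were higher by the 2-fold threshold (4.94%, near the 4.22% of all genes). Another 9 were lower, where 8.68% of all genes were lower. The 4 higher genes were at 0.258 FPKM or less in the control, and *BnaC03.IAA.5*, an *Aux/IAA* gene, is among them. Outside the family 3 of 77 were higher (3.90%) and 9 lower. The median log2 fold change of the 81 genes was -0.12. For *BnaA08R.IAA.1*, on unplaced sequence, neighbouring identifiers need not be neighbours on the chromosome. The tables used here do not name the flanking genes outside the family.

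Of the flanking genes, 4 belong to the family, and 3 of these are orthologs of *IAA7*, which is a close neighbour of *IAA2* in *Arabidopsis* too. *BnaA03.IAA.6*, 19501 bp from *BnaA03.IAA.5*, was at 62.8 FPKM in the control and so close to the 58.8 FPKM of its neighbour, but was 1.86-fold higher with IAA where *BnaA03.IAA.5* was 3.17-fold higher. The log2 fold change of *BnaA03.IAA.5* exceeded that of *BnaA03.IAA.6* by 0.77 (95% exact interval from 0.62 to 0.91). *BnaA05.IAA.2*, 41545 bp from *BnaA05.IAA.3*, was at 27.2 FPKM and 50.5 FPKM, and *BnaA05.IAA.3* exceeded its log2 fold change by 0.50 (interval from 0.27 to 0.73). *BnaC05.IAA.6*, 40637 bp from *BnaC05.IAA.7*, was at 20.9 FPKM and 29.1 FPKM, 1.39-fold higher where *BnaC05.IAA.7* was 2.39-fold higher; no interval is given here, since *BnaC05.IAA.6* has an uncertain transcript length. On all 3 chromosomes the *IAA2* ortholog thus had the larger fold and, by FPKM, the higher level with IAA. The FPKM of *BnaC05.IAA.6* depend on its listed transcript length of 4811 bp and may be too low. In estimated fragments it had 2291 in the control and 2459 with IAA, against 2118 and 3912 for *BnaC05.IAA.7*.

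The last flanking family gene is *BnaC03.IAA.5*, a truncated gene that starts after a gap of 54 bp from *BnaC03.IAA.4* and encodes 88 amino acids. The paper treats it as a tandem duplicate of *BnaC03.IAA.4* and proposes that gene conversion between A03 and C03 may have produced it. Here *BnaC03.IAA.5* was counted among the other subgroup A1 genes, and among those that passed the 2-fold threshold upward. It was at 0.258 FPKM in the control and 1.35 FPKM with IAA, or 1 and 4 estimated fragments. This is 0.247% and 0.438% of the level of *BnaC03.IAA.4*, a small amount beside the level of that gene.

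**Figure D5:**
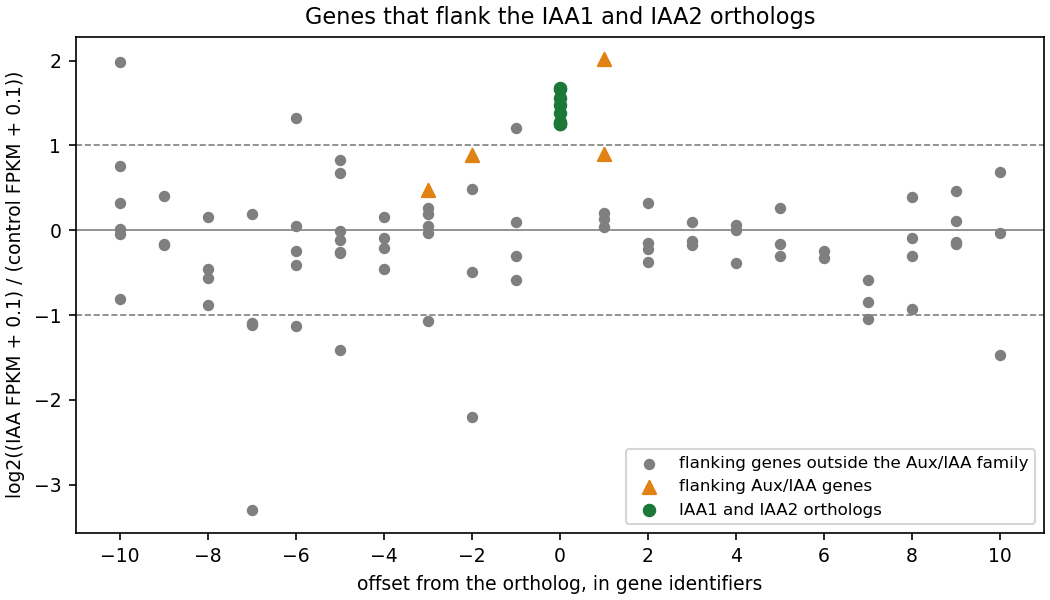
Log2 fold change (0.1 FPKM added to both values) of the 8 orthologs (green, offset 0) and of the 81 genes with values at up to 10 gene identifiers on either side (grey, or orange triangles for *Aux/IAA* genes); dashed lines mark 2-fold differences. The orthologs lie above the upper line, where 4 of the 81 flanking genes also lie.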

How the data were processed

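The authors made TruSeq libraries, mapped the reads with HISAT2 2.0.4 (Darmor-*bzh* build v4.2) and deposited FPKM per gene from Cufflinks 2.2.1, which can divide fragments between similar copies. The deposited table holds 63193 genes, none at 0 FPKM in both libraries. Gene positions, orthologs and subgroups came from the supplementary gene tables. No reference gene table used here names the deposited identifiers (0 matched). Tissue values from the supplement were not used. The paper called differential genes from read counts with DEGseq, which was not repeated here.

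A pseudocount of 0.1 FPKM was used for log2 fold changes, computed with Python 3.11.15, numpy 2.4.6, pandas 2.3.3, scipy 1.17.1 and matplotlib 3.10.9, and 2-fold was the threshold. Depth was estimated by a grid search over genes above 0 and under 0.35 FPKM. Intervals are 95% Clopper-Pearson, Poisson or conditional odds ratio intervals of the estimated fragments. Depth recovery was run on simulated counts. The intervals were run on simulated Poisson counts at known depths and a fixed length. That simulation leaves out error in the estimated depth and the splitting of fragments between copies. The design names all 8 orthologs, the 3 nearest genes per class and adjacent genes; of the flanking genes outside the family only counts are given, since they have no names, while the *IAA7* orthologs among them and their comparison were chosen after their values were seen. The *Aux/IAA* genes set beside these nearest genes were also picked after their values were seen. Members and lists were chosen with earlier results of these data known. The alternatives were other pseudocounts, scalings, fold thresholds and filters, fragments in place of FPKM, fewer flanking genes and coding length.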

Additional observations from a re-analysis of the deposited data

How the results depend on the processing

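No paired analysis was possible because there is no second library of either condition. With a pseudocount of 1 FPKM, 7 of the 8 orthologs passed the 2-fold threshold and *BnaA08R.IAA.1*, at a log2 fold change of 0.80, did not, as the added value is of the size of its own levels. All 8 passed with 0.01 FPKM, the filter of 1 FPKM, both rescalings and a threshold of 1.5-fold, and 0 were at least 4-fold higher. Their median log2 fold change moved by less than the typical counting error of 1 ortholog under every alternative run. Of 32 recomputed fold changes of single orthologs, 30 stayed within their counting interval and 2 left it, both after centring of the IAA library, which raised *BnaC05.IAA.7* to 1.35 and *BnaC03.IAA.4* to 1.65. The share of the family held by the orthologs was 44.8% in the control and 55.9% with IAA with subgroup A1 alone as the denominator, and 19.7% and 30.3% in estimated fragments, which count longer transcripts more. In fragments the Cn share was 61.5% in the control and 59.7% with IAA for *BnaC03.IAA.4*, and 62.9% and 60.8% for *BnaC05.IAA.7*. Of the flanking genes, 2 were at least 2-fold higher with a minimum of 1 FPKM, *BnaC03.IAA.5* among them. Outside the family 1 of 56 was higher at that minimum (1.79%) and 4 were lower. Of all genes at that minimum, 2.51% were higher and 4.86% lower. Within 5 identifiers 2 were higher, again with *BnaC03.IAA.5* among them, and no share was computed.

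Over all genes, 2668 were higher and 5487 lower by the 2-fold threshold. The counts became 666 and 873 when 1 FPKM was added, 4311 and 9099 with 0.01 FPKM, 5635 and 12204 at a 1.5-fold threshold, 724 and 1160 at 4-fold, 1103 and 2137 with a minimum of 1 FPKM, and 318 and 255 with a minimum of 10 FPKM. Of the called genes 32.7% were higher, against 43.3% with a pseudocount of 1 FPKM. With coding length in place of transcript length, the low values did not come out as whole fragments (mean deviation 0.214 fragments in the control against 0.00442). Coding length at the depths fitted with transcript length left *BnaA08R.IAA.1* with 7 and 13 fragments. Its interval then ran from -0.17 to 2.83 on the log2 scale and included 0. As this mixes settings, it cannot decide whether the gene was higher. Depth limits this gene most.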
